A study of Canis lupus familiaris with 5 samples.

Results

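Carbonic anhydrase 1 (CA1, ENSCAFG00000008702) and carbonic anhydrase 2 (CA2, ENSCAFG00000025202) were followed through red cell formation in dog bone marrow. These are 2 of the 20257 features in each deposited matrix. Both were chosen by their measured levels, since CPM and share of positive cells in these same libraries were already known to differ along the erythroid lineage. For that reason their own levels and differences are given as a description, with no test.

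Carbonic anhydrases are zinc enzymes that convert carbon dioxide and water into bicarbonate and a proton, and back again. CA1 and CA2 are the cytosolic forms found in mature red cells, where they work with the anion exchanger SLC4A1 (band 3) to carry carbon dioxide as bicarbonate. CA2 turns over its substrate faster than CA1 and is also known from osteoclasts, kidney and other acid- or bicarbonate-secreting tissue. In the RefSeq gene table of the dog assembly UU_Cfam_GSD_1.0, CA13, CA1, CA3 and CA2 lie next to one another in that order on a single chromosome.

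The study profiled hematopoietic cells of femoral marrow from 3 healthy dogs of genotype Wt, whose age the labels do not state. Red cells were lysed before the cells were loaded, so mature erythrocytes were removed by design. Unsorted cells of each dog gave 3 whole-marrow libraries, for which at least 70% viability and fewer than 25% neutrophils were required. Viable CD34-positive cells of marrows 2 and 3 gave 2 CD34-sorted libraries, so the sorted libraries share dogs with the unsorted ones. CD34 is a surface protein of stem and progenitor cells. No group received a treatment, and each library aimed at 5000 cells.

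After filtering, whole marrows 1 to 3 held 7295, 4585 and 4343 cells with medians of 2694, 3689 and 4344 unique molecular identifiers (UMIs). The sorted libraries held 4720 and 3765 cells with medians of 11622 and 14623 UMIs. Total UMIs per library ran from 46114431 to 70169186. Any pair of libraries shared between 3 and 11 cell barcodes, at most 0.266% of the smaller library. Within a gate, levels are UMIs of the gene per 1000000 UMIs, both summed over the cells (CPM).

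Cells were placed in 8 gates on their raw UMIs, and a cell may pass more than 1 gate. The SULT1B1/TFPI gate, labelled stem-like, required at least 4 UMIs of these genes together. The progenitor gate required at least 3 UMIs of GATA1, KLF1 and NOSTRIN together, of which GATA1 and KLF1 encode erythroid transcription factors, with AHSP under 0.2% of the cell's UMIs. AHSP encodes the chaperone of free alpha-globin, and cells at or above 0.2% were taken as erythroblasts. These were divided at 5 UMIs of MKI67 and TOP2A together, both genes of dividing cells. The remaining gates used EPX of eosinophils, MPO of neutrophil progenitors, VCAN of monocytes and VPREB1 of B cell precursors.

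The erythroblast gates were checked against 10 erythroid marker genes that include ALAS2 and HEMGN. Their summed level was 11806 to 12096 CPM in erythroblasts with at least 5 MKI67 and TOP2A UMIs and 452 to 581 CPM in whole-marrow progenitors. It was 4640 to 8176 CPM in erythroblasts with fewer such UMIs. The globin gene HBM alone gave 8642 to 8979 CPM of the first sum. The 6 megakaryocyte markers summed to 3.12 to 9.57 CPM in erythroblasts with at least 5 MKI67 and TOP2A UMIs, with VWF at 0, and to 52.2 to 329 CPM in whole-marrow progenitors. The 5 markers of osteoclasts, another CA2-rich cell, summed to 37.1 to 43.0 CPM in the erythroblasts and 1.31 to 25.3 CPM in the progenitors. Nearly all of the erythroblast sum was ACP5 (36.7 to 42.7 CPM), which was higher still in the MPO gate (71.5 to 101 CPM), and CALCR was at 0 in all gates. The part of such cells in the CA2 values was not tested. Erythroblasts with fewer than 5 MKI67 and TOP2A UMIs had been labelled late. The data go against that name, because the gate also selects shallow cells: their median depth was 2282, 2182 and 4454 UMIs, against 44491, 43225 and 60475 UMIs above the limit. They are called low-MKI67/TOP2A erythroblasts here, and the others high-MKI67/TOP2A erythroblasts.

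Both carbonic anhydrases were concentrated in erythroblasts, and CA2 was already abundant in progenitors where CA1 was low. Erythroblasts made up 5.96%, 9.64% and 6.03% of the cells of whole marrows 1 to 3. They held 98.8%, 98.6% and 98.5% of the CA1 UMIs of these libraries. Their share of CA2 UMIs was 94.9%, 93.8% and 93.4%, and a further 4.01%, 5.30% and 5.37% lay in the progenitor gate. The progenitor gate held only 0.249%, 0.565% and 0.502% of CA1 UMIs. In bulk terms, over all cells of a library, CA1 stood at 1224, 989 and 1036 CPM in whole marrow and 4.66 and 4.47 CPM in sorted cells. CA2 stood at 1230, 2015 and 1533 CPM in whole marrow and 154 and 259 CPM in sorted cells. The sorted libraries contained 1 and 0 erythroblast-gate cells, and that single cell carried 78 of the 285 CA1 UMIs of sorted library 1.

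**Figure D1:**
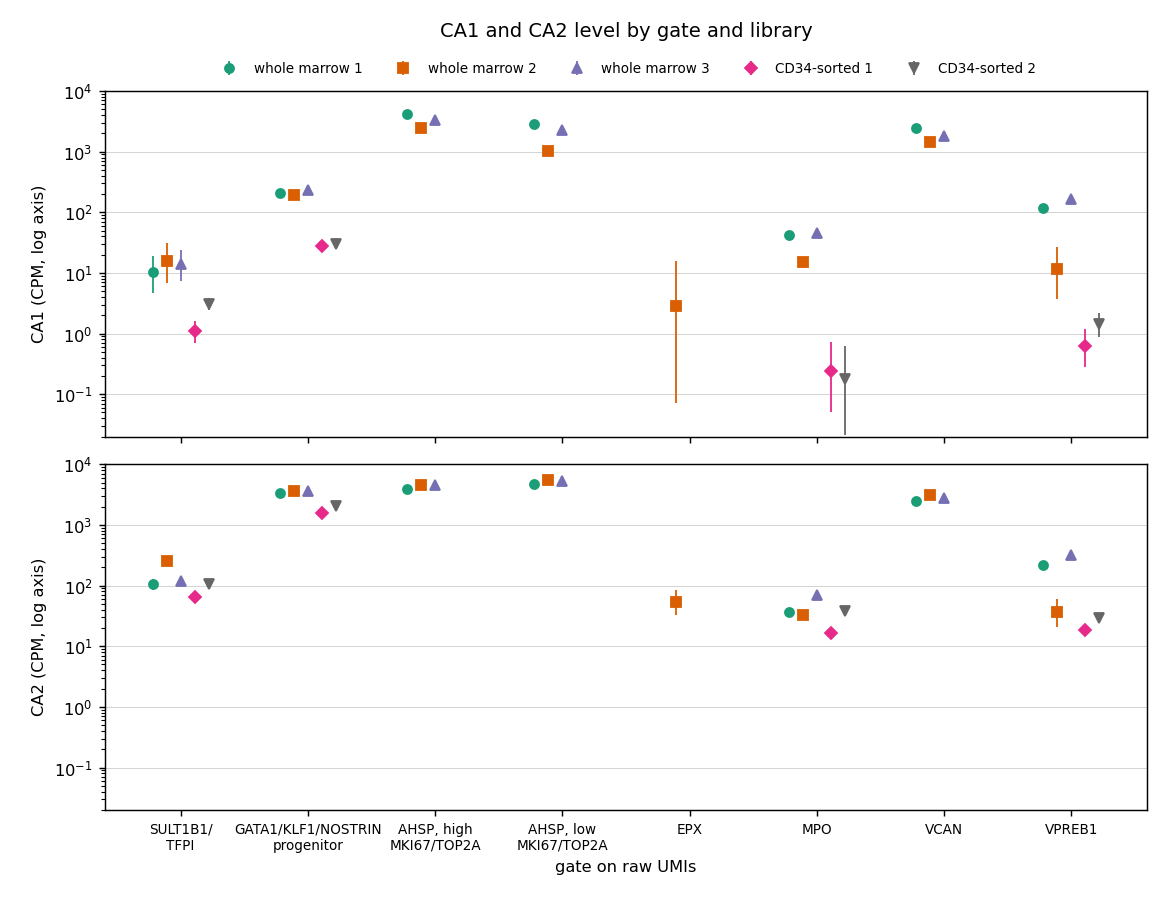
CA1 (top) and CA2 (bottom) in CPM on a log axis for each gate with at least 20 cells, 1 point per library, with exact 95% counting intervals. CA2 exceeds 1500 CPM in the progenitor gate of every library, where CA1 lies between 28.1 and 233 CPM.

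The SULT1B1/TFPI gate carried far less of either transcript than the erythroid gates. Its own markers go against the stem-like label in part. The 8 stem and progenitor markers summed to 562 to 795 CPM in whole marrow and 660 to 882 CPM in sorted cells. VPREB1 was at 1062 to 3058 CPM in whole marrow and PAX5, a B cell transcription factor, at 142 to 243 CPM. The VPREB1 gate was also passed by 43, 8 and 21 of the 62, 29 and 44 whole-marrow cells of this gate, and by 558 and 803 of its 1534 and 1675 sorted cells. It is therefore called by its gate genes.

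In the SULT1B1/TFPI gate CA2 measured 106, 255 and 119 CPM in whole marrows 1 to 3, from 62, 29 and 44 cells, and 65.1 and 107 CPM in 1534 and 1675 sorted cells. Whole-marrow and sorted values overlapped for CA2. CA1 measured 10.2, 15.8 and 14.1 CPM in whole marrow and 1.09 and 3.12 CPM in sorted cells of the gate. All 3 whole-marrow values were above both sorted values, but cells outside the erythroid gates of the same whole marrows had like levels of 17.1, 14.4 and 15.7 CPM. With cells that passed another gate set aside, 18, 15 and 22 whole-marrow cells remained. Their CA2 was 168, 60.1 and 95.6 CPM, which changed the order of the libraries, and their CA1 was 2.99, 7.51 and 12.3 CPM, from 1, 2 and 8 UMIs.

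In the progenitor gate CA2 was among the most abundant transcripts of the cell while CA1 was not. CA2 measured 3354, 3682 and 3692 CPM in whole marrow (mean 3576 ± 192 SD, n = 3) and 1563 and 2045 CPM in sorted cells (mean 1804 ± 341 SD, n = 2). CA1 measured 208, 193 and 233 CPM in whole marrow (mean 211 ± 20.5 SD, n = 3) and 28.1 and 29.8 CPM in sorted cells (mean 29.0 ± 1.23 SD, n = 2). For neither gene did whole-marrow and sorted values overlap, but the share of all features that separate alike is not reported here. The cells also differed in make-up. Cells of the progenitor gate alone had AHSP at 791, 722 and 802 CPM in whole marrow and 6.77 and 32.7 CPM in sorted libraries. By rank among detected features, CA2 stood 74th, 73rd and 71st in whole marrow and 102nd and 91st in sorted cells. CA1 ranked 564th, 608th and 469th in whole marrow and 3247th and 3006th in sorted cells. These progenitor values rest on 25, 35 and 25 cells of whole marrows 1 to 3 and on 239 and 306 cells of the sorted libraries. With the AHSP limit of the gate at 0.5%, mean CA1 in whole-marrow progenitors was 1555 CPM and mean CA2 4993 CPM.

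Single progenitor cells showed the same order. CA2 UMIs were found in 100%, 97.1% and 92% of whole-marrow progenitors and in 97.1% and 97.4% of sorted ones. After each cell was thinned to 1000 UMIs, which removed no progenitor, 96%, 77.1% and 72% of whole-marrow and 57.3% and 68.6% of sorted progenitors kept a CA2 UMI. CA1 was kept in 20%, 5.71% and 20% of whole-marrow and 4.18% and 2.29% of sorted progenitors, against 52%, 51.4%, 72%, 30.1% and 33.0% before thinning. Cells with CA2 and no CA1 made up 48%, 45.7% and 20% of whole-marrow and 67.4% and 64.4% of sorted progenitors. The reverse, CA1 with no CA2, was seen in 0 cells of whole marrow and in 1 and 0 sorted cells.

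The progenitor gate could hold several lineages, so its cells were divided by KLF1, a transcription factor of erythroid commitment. In sorted library 1, CA2 was 2409 CPM in 81 cells with at least 2 KLF1 UMIs, 1666 CPM in 57 cells with 1 and 648 CPM in 101 cells with none. In sorted library 2 the values were 2661, 1931 and 831 CPM in 162, 51 and 93 cells. CA2 was thus ordered by KLF1 in both sorted libraries, while CA1 was not. Its levels were 18.1, 45.5 and 27.8 CPM in sorted library 1 and 25.9, 44.6 and 31.0 CPM in sorted library 2. Whole-marrow progenitors without KLF1 numbered only 5, 6 and 5 cells, with CA2 at 439, 322 and 288 CPM against 4234, 4237 and 4314 CPM at 2 or more KLF1 UMIs. Because KLF1 is part of the gate, the division is a description.

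Division by ITGA2B, a megakaryocyte integrin, changed less. Sorted progenitors with at least 2 ITGA2B UMIs had CA2 at 1434 and 1908 CPM, and the others at 1598 and 2126 CPM. Division by the basophil and mast cell genes MS4A2, HDC and CPA3 gave 1093 and 1992 CPM with and 1694 and 2066 CPM without these genes. Markers of these lineages were present in the gate: the 6 basophil and mast markers summed to 47.0 to 759 CPM in whole-marrow and 312 to 344 CPM in sorted progenitors. Markers of late neutrophils summed to 307 to 4799 CPM in whole-marrow progenitors and 5.44 to 13.8 CPM in sorted ones, and their part in the whole-marrow values was not tested.

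High-MKI67/TOP2A erythroblasts carried both transcripts in nearly every cell. CA1 measured 4116, 2422 and 3288 CPM in whole marrows 1 to 3 (mean 3275 ± 847 SD, n = 3), from 331, 401 and 224 cells. CA2 measured 3855, 4634 and 4533 CPM (mean 4341 ± 424 SD, n = 3). Neither range overlapped that of whole-marrow progenitors. Both transcripts were present together in at least 98.8% of these cells in each library, with medians of 161, 89 and 177.5 CA1 UMIs and 146, 166 and 241.5 CA2 UMIs per cell.

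The whole-marrow libraries differed more in CA1 than in CA2. Each comes from a separate dog, so dog, library preparation and the mix of cells in the gate cannot be told apart. Whole marrow 1 had the highest CA1 and the lowest CA2 of the 3 high-MKI67/TOP2A gates, and whole marrow 2 the lowest CA1 and the highest CA2. The log2 ratio of the highest to the lowest library was 0.77 for CA1 and 0.27 for CA2. Among 1092 features with a mean of at least 100 CPM in this gate the median of that ratio was 0.30, and 8.70% of features spread more widely than CA1 and 56.5% more widely than CA2.

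Low-MKI67/TOP2A erythroblasts had less CA1 and slightly more CA2 than the high-MKI67/TOP2A cells of the same library. CA1 measured 2850, 1016 and 2242 CPM (mean 2036 ± 934 SD, n = 3) in 104, 41 and 38 cells. It was lower than in the high-MKI67/TOP2A cells within each of the 3 libraries, although the ranges over libraries overlapped. A division of deeper cells by their MKI67 and TOP2A share, given last, showed little CA1 difference in whole marrows 2 and 3. CA2 measured 4813, 5568 and 5323 CPM (mean 5235 ± 385 SD, n = 3), above all 3 high-MKI67/TOP2A values.

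Depth split this gate into unlike cells. The 18, 6 and 9 low-MKI67/TOP2A cells with at least 20000 UMIs supplied 80.3%, 83.1% and 83.1% of the gate's CA2 UMIs. In these deep cells CA2 was 5473, 7189 and 6073 CPM and CA1 2728, 1069 and 2295 CPM. In the 46, 16 and 16 cells with at least 1000 and fewer than 5000 UMIs, CA2 was 3277, 2181 and 3513 CPM and CA1 3068, 1319 and 2541 CPM. The summed level in the gate therefore describes mainly a few deep cells, whose AHSP (6410, 4071 and 6655 CPM) was below that of the high-MKI67/TOP2A gate (11350.2, 8242 and 9063 CPM). With at most 5% mitochondrial UMIs, the gate's mean CA2 was 3174 CPM, below the 3274 CPM of the high-MKI67/TOP2A gate under the same limit, so the small CA2 difference turned its direction. Late neutrophil markers summed to 3711 to 10192 CPM in this gate and to 691 to 1455 CPM in the high-MKI67/TOP2A gate, and the part of other cells' RNA in these values was not tested.

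The CA1-to-CA2 ratio, UMIs of CA1 per UMI of CA2, was used to compare gates. UMIs from transcript ends count molecules without regard to length, but capture may differ between genes, so the ratio is compared between gates and not read as a ratio of molecules. It was 0.062, 0.052 and 0.063 in whole-marrow progenitors and 0.018 and 0.015 in sorted ones. It was 1.07, 0.52 and 0.73 in high-MKI67/TOP2A erythroblasts of whole marrows 1 to 3 and 0.59, 0.18 and 0.42 in low-MKI67/TOP2A ones. All erythroblast values lay above all progenitor values, and whole marrow 1 was highest and whole marrow 2 lowest in both erythroblast gates.

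**Figure D2:**
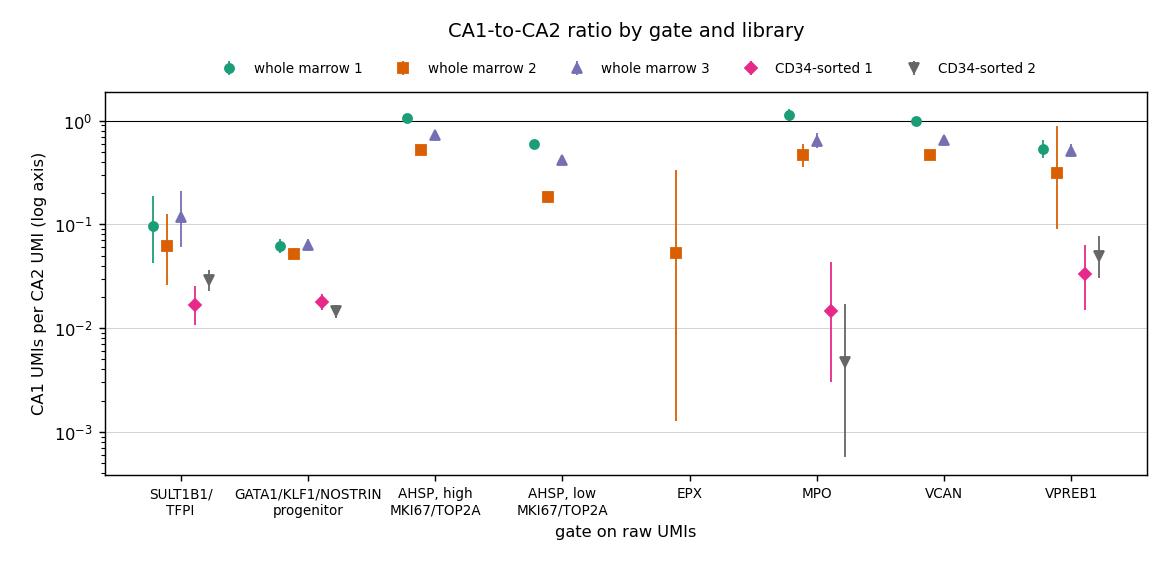
CA1 UMIs per CA2 UMI on a log axis for each gate and library with at least 20 cells and 20 UMIs of the pair, with exact 95% counting intervals. The ratio is at most 0.063 in the progenitor gates and between 0.18 and 1.07 in the erythroblast gates.

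Along the share of AHSP, CA2 came before CA1 and both were lower at the highest shares. Below 0.2% only cells that passed the GATA1, KLF1 and NOSTRIN limit were counted. CA2 reached 2306, 3616 and 2803 CPM in whole marrow while AHSP was detected but under 0.1% of UMIs, where CA1 was 31.3, 21.3 and 105 CPM. In sorted progenitors with AHSP at that level, CA2 was 2720 and 3197 CPM and CA1 2.76 and 17.7 CPM. Sorted progenitors with no AHSP UMI already had CA2 at 1460 and 1788 CPM.

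In whole marrow CA1 was higher in each of the next 3 bins. Just outside the erythroblast limit, at 0.1 to 0.2% AHSP, it was 536, 485 and 427 CPM. Just inside, at 0.2 to 0.4%, it was 1869, 1455 and 1679 CPM, and at 0.4 to 0.8% it was 4358, 3365 and 3697 CPM. Across the same 3 bins CA2 went from 5586, 4480 and 5385 CPM through 4963, 6434 and 5188 CPM to 5177, 5873 and 5747 CPM. CA1 thus differed several-fold between neighbouring bins on either side of the limit, and CA2 stayed between 4480 and 6434 CPM.

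At 0.8 to 1.6% AHSP, the bin with most cells, CA2 was lower in all 3 libraries at 3728, 3507 and 4013 CPM. CA1 was 4523, 1995 and 3191 CPM there, lower than in the preceding bin in whole marrows 2 and 3 only. Whole marrow 1 alone had more than 4 cells at 1.6% or above, and its 62 cells had 1830 CPM of CA1 and 2339 CPM of CA2. The ratio went from 0.014, 0.006 and 0.038 at AHSP up to 0.1% to 0.84, 0.57 and 0.64 at 0.4 to 0.8%. Since AHSP is a gate gene and an abundant erythroblast transcript, these bins order cells by a second erythroid gene and not by time.

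**Figure D3:**
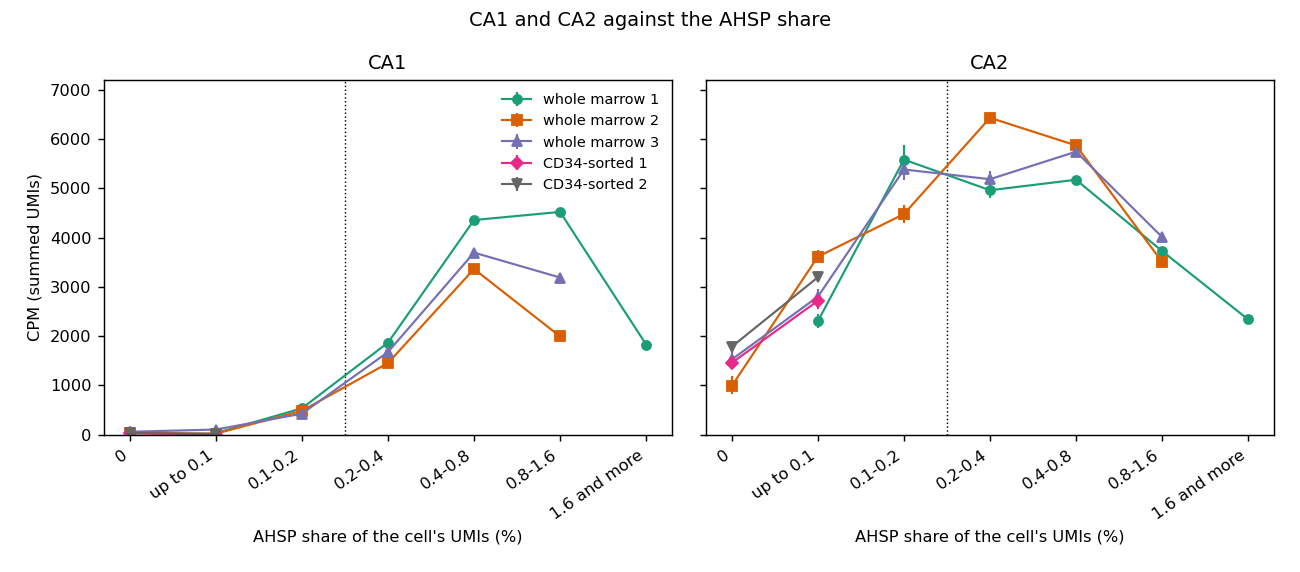
CA1 (left) and CA2 (right) in CPM against the AHSP share of a cell's UMIs, for bins with at least 5 cells, 1 line per library, with exact 95% counting intervals. The dotted line is the 0.2% limit of the erythroblast gates. Where AHSP is detected but under 0.1%, CA2 is at least 2306 CPM and CA1 at most 105 CPM in every library.

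Outside the erythroid gates, levels were low once cells that also passed another gate were set aside. The VCAN gate of whole marrow gave 2444, 1449 and 1800 CPM of CA1 as defined, but 79, 72 and 45 of its 565, 512 and 322 cells were also high-MKI67/TOP2A erythroblasts. Cells that passed the VCAN gate alone had 17.2, 15.1 and 11.8 CPM of CA1 and 16.2, 22.6 and 20.7 CPM of CA2. MPO-gate cells alone had 9.65, 8.03 and 6.41 CPM of CA1 and 11.2, 14.7 and 11.4 CPM of CA2. VPREB1-gate cells alone had 30.9, 11.6 and 14.7 CPM of CA1 and 28.3, 46.5 and 20.9 CPM of CA2. Cells of the EPX gate alone reached 20 in whole marrow 2 only, with 5.06 CPM of CA1 and 81.0 CPM of CA2, from 1 and 16 UMIs.

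In whole marrow these low levels came with erythroblast transcripts of other kinds. Outside the erythroid gates 8.27%, 8.20% and 10.4% of cells had a CA1 UMI, and 18.3%, 29.3% and 31.7% had a UMI of HBM, a globin gene. Among cells of 1 gate alone, the CA1-to-CA2 ratios of the MPO, VCAN and VPREB1 gates overlapped. They were 0.87, 0.55 and 0.56 for MPO, 1.06, 0.67 and 0.57 for VCAN and 1.09, 0.25 and 0.70 for VPREB1. The VPREB1 value of 0.25 rests on 3 CA1 and 12 CA2 UMIs. For the SULT1B1/TFPI gate the ratio was lower at 0.018, 0.125 and 0.129, but from only 1, 2 and 8 CA1 UMIs. For the EPX gate of whole marrow 2 it was 0.0625, from 1 CA1 UMI. The part of erythroblast RNA from outside the cell in these levels was not tested.

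Sorted libraries, with almost no erythroblasts, had 1.47 and 1.45 CPM of CA1 outside the erythroid gates and AHSP at 0.141 and 0.147 CPM. CA2 there was ordered alike in both libraries. Cells of the SULT1B1/TFPI gate alone had 51.9 and 87.0 CPM, cells of the MPO gate alone 16.9 and 18.8 CPM and cells of the VPREB1 gate alone 5.32 and 7.08 CPM. At 1000 UMIs per cell, 4.08% and 6.82% of the SULT1B1/TFPI cells kept a CA2 UMI, against 1.90% and 2.13% of the MPO and 0.259% and 0.668% of the VPREB1 cells. Thinning left out 0 and 0, 0 and 3, and 4 and 1 shallower cells. Before thinning these shares were 36.2% and 55.5%, 32.3% and 39.5%, and 2.06% and 5.33%, at median depths of 13811 and 16098, 26582 and 30025, and 2757 and 5112 UMIs. With 2 sorted libraries these gate levels are a description.

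A set of 3 comparisons between gates placed CA1 and CA2 among other genes. Each summed UMIs per library and gate, left out cells that passed both gates, blocked on library and applied the quasi-likelihood F test of edgeR. Adjusted p-values (Benjamini-Hochberg) cover all features tested, and 0.05 was the limit. Whole-marrow libraries come from separate dogs, so p-values measure spread between dogs except where sorted libraries of the same dogs enter. Lists of other carbonic anhydrases (12 of 14 listed symbols present), of ion, gas and water transport genes (20 of 24) and of the erythroid program (30 of 32) were followed. A gene near 0 in 1 gate enters a comparison only through the other gate, so the counts over lists describe the genes that passed the low-count limit and not the whole lists, and such a gene had to differ.

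Between progenitors and the SULT1B1/TFPI gate, with 5 libraries, CA2 was 5.58 ± 0.13 (SE) and CA1 4.84 ± 0.24 higher in progenitors on the log2 scale. Of 5949 features, 31.8% passed the test, 14.8% higher and 17% lower in progenitors, and the median difference was -0.01. Of 7 transport genes tested, 3 rose and 2 fell (median 0.12). AQP1, a water channel that also passes carbon dioxide, rose by 6.65 ± 0.42, and RHAG, the Rh-associated ammonia channel, by 5.73 ± 0.22. In the sorted SULT1B1/TFPI gate AQP1 was 0.666 and 0.813 CPM and RHAG 2.05 and 3.38 CPM. In whole marrow this gate had 7.91 to 21.5 CPM of AQP1 and 2.16 to 19.8 CPM of RHAG. Both are among the 3 that rose but entered the test through the progenitors, so they had to differ. SLC14A1, the urea transporter, rose by 1.07 ± 0.25 (adjusted p = 0.00751, edgeR). The bicarbonate transporter SLC4A7 fell by 1.32 ± 0.19 (adjusted p = 0.000312, edgeR), and the anion exchanger SLC4A2 fell by 0.56 ± 0.20 (adjusted p = 0.047, edgeR). Without the library block 2 of the 7 rose and 1 fell, where 19.3% of all features passed.

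Of 17 erythroid program genes tested in the same comparison, 13 rose and 2 fell (median 1.44). EPOR, the erythropoietin receptor, rose by 6.51 ± 0.25 and PRDX2, a red cell peroxiredoxin, by 3.54 ± 0.54. EPOR was 2.38 and 5.01 CPM in sorted cells of the SULT1B1/TFPI gate, so it too entered through the progenitors. BCL11A, a repressor of fetal globin and a lymphoid factor, fell by 1.23 ± 0.14, and E2F2, a cell cycle factor, fell by 2.83 ± 0.43. CA9, a membrane-bound enzyme induced by low oxygen, was the only other carbonic anhydrase tested and did not pass (log2 difference -0.03 ± 0.18, adjusted p = 0.924, edgeR). With cells of 1 gate only, which removes the cells shared with the VPREB1 gate and leaves the 2 sorted libraries, CA2 was 4.86 ± 0.08 and CA1 4.69 ± 0.24 higher in progenitors. Of all features 32.3% passed there, and 15 of 21 erythroid, 6 of 12 transport and 2 of 3 carbonic anhydrase genes did, the last being CA11 and CA13, both lower in progenitors.

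Between progenitors and high-MKI67/TOP2A erythroblasts of the 3 whole marrows, CA1 was 4.27 ± 0.15 and CA2 0.62 ± 0.08 higher in erythroblasts on the log2 scale. Of 8416 features, 39.9% passed, 19.2% higher and 20.7% lower in erythroblasts, with a median of -0.01. Without whole marrow 2 the number that passed was 1840 in place of 3355. Of 30 erythroid program genes, 26 rose and 1 fell (median 2.78). HBM rose by 7.45 ± 0.60 (adjusted p = 0.0122, edgeR). HEMGN, an erythroid nuclear protein, had 11 UMIs in the progenitors of the 3 libraries together, and its log2 difference was 6.98 ± 0.19. ERMAP, a red cell membrane adhesion protein, had 2 UMIs in the progenitors of the 3 libraries together and 82.2 to 88.5 CPM in erythroblasts. CAT, catalase, fell by 0.38 ± 0.10.

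Of 10 transport genes tested in that step, 5 rose and 3 fell (median 1.02). RHCE, the Rh blood group protein, rose by 5.93 ± 0.51 (adjusted p = 0.00381, edgeR) and AQP1 by a further 2.49 ± 0.11. SLC4A1, the red cell anion exchanger, had 2 UMIs in all whole-marrow progenitors and 14.9 to 27.0 CPM in high-MKI67/TOP2A erythroblasts. It is among the 5 but entered the test only through the erythroblasts, so it had to differ. RHAG rose by 1.43 ± 0.14 and SLC14A1 by 1.99 ± 0.19. SLC4A7 fell by 2.08 ± 0.31, SLC26A6, another anion exchanger, by 2.05 ± 0.33 and SLC4A2 by 1.32 ± 0.32. Among the other carbonic anhydrases, CA9 fell by 0.98 ± 0.18 (adjusted p = 0.000535, edgeR), while CA6 and CA13 were tested and did not pass (adjusted p = 0.304 and 0.208, edgeR).

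Between low- and high-MKI67/TOP2A erythroblasts, CA1 was 0.85 ± 0.14 lower and CA2 0.18 ± 0.06 higher in the low gate on the log2 scale. Of 8058 features, 17.7% passed, 7.94% higher and 9.73% lower, with a median of -0.07. Of 30 erythroid program genes, 24 fell and 0 rose (median -0.89). SPTB, spectrin beta, fell by 1.42 ± 0.17 and ANK1, ankyrin, by 1.42 ± 0.16. Of 9 transport genes 5 fell and 0 rose (median -0.83), namely RHCE by 1.10 ± 0.10, SLC4A1 by 1.10 ± 0.38, AQP1 by 1.05 ± 0.10, RHAG by 1.00 ± 0.14 and SLC14A1 by 0.83 ± 0.17. All 3 other carbonic anhydrases tested rose: CA13 by 2.19 ± 0.63, CA6 by 2.10 ± 0.65 and CA9 by 0.77 ± 0.26. The first pair rest on 14 and 13 UMIs in the low gate. In the whole-marrow MPO gate CA13 was higher still at 19.8 to 26.9 CPM, and CA6 at 20.1 to 51.3 CPM. That gate was also passed by 12, 2 and 1 of the 104, 41 and 38 low-gate cells, and their part in the rise was not tested.

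These calls depended on the settings. The number of features that passed was 712 (8.65%) without whole marrow 1, 742 (9.21%) with DESeq2, of which 439 were higher and 303 lower, and 167 (2.22%) when the erythroblast limit was 0.5% AHSP. It was 397 (4.93%) without the library block and 418 (6.91%) at 5% mitochondrial UMIs. With the erythroblast limit at 0.5% AHSP, 2 of 30 erythroid genes, 1 of 9 transport genes and 0 of 3 carbonic anhydrases passed. Without whole marrow 1 none of the 3 carbonic anhydrases passed. Without the library block 9 of 30 erythroid, 3 of 9 transport and 0 of 3 carbonic anhydrase genes passed. At 5% mitochondrial UMIs 7 of 29 erythroid genes passed, and with DESeq2 1 of the 3 carbonic anhydrases did. In each of these settings, all erythroid and transport genes that passed were lower in the low gate.

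**Figure D4:**
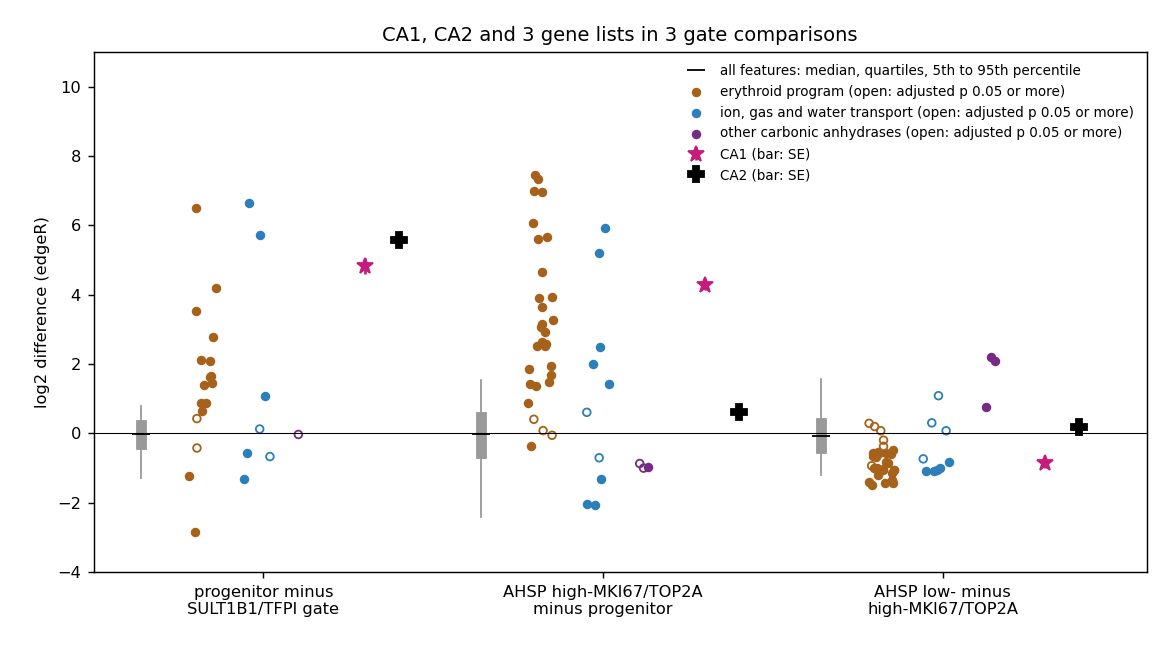
Log2 differences (edgeR) in 3 gate comparisons for CA1, CA2 (with SE) and the tested genes of 3 lists; filled points passed 0.05 after Benjamini-Hochberg adjustment and grey bars show all features tested. CA2 is far above 0 only in the first comparison (5.58), and CA1 in the first (4.84) and second (4.27).

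Genes whose level followed each member were ranked by Pearson correlation of log2(CPM + 1) over 30 sums, 1 per library and gate with at least 20 cells, among 5865 symbols. The sums share libraries, and several share cells, so the correlations are a description. The 5 genes nearest to CA1 were PKLR, the pyruvate kinase of liver and red cells (r = 0.96), AQP1, SVIP, an inhibitor of protein degradation at the endoplasmic reticulum, TSHB, the beta subunit of thyrotropin, and TSPO2, a membrane protein of erythroid cells (r = 0.95 each). The 5 nearest to CA2 were EPOR, FN3K, a kinase that deglycates proteins, and ADD2, a subunit of the membrane skeleton protein adducin (r = 0.98 each), with MUC13, a mucin, and ACKR1, the Duffy blood group receptor (r = 0.97 each). CA2 ranked 48th for CA1 and CA1 ranked 52nd for CA2 (r = 0.88). With cells of 1 gate only (27 sums), PKLR, TSHB and AQP1 remained among the 5 nearest to CA1, and FN3K, EPOR, ADD2 and ACKR1 among those nearest to CA2.

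The nearest gene to each member was chosen by its levels in these same sums, so the levels are a description. In whole-marrow progenitors EPOR was 99.7 to 125 CPM and in high-MKI67/TOP2A erythroblasts 235 to 249 CPM. PKLR was 17.0 to 21.1 CPM in the progenitors and 87.3 to 106 CPM in the erythroblasts. In sorted progenitors EPOR was 72.8 and 115 CPM and PKLR 0.907 and 3.08 CPM.

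The other carbonic anhydrases were low in the erythroid gates. CA9 was the highest of them, with medians of 44.5 CPM in whole-marrow progenitors, 18.7 CPM in high-MKI67/TOP2A and 29.1 CPM in low-MKI67/TOP2A erythroblasts. CA13, a cytosolic form whose gene lies beside CA1, had medians of 3.92, 2.17 and 6.43 CPM in these gates. CA4, a membrane-anchored form, CA7 and CA11 had medians of at most 0.204 CPM in high-MKI67/TOP2A erythroblasts, and CA5A, CA5B, CA8, CA10, CA12 and CA14 had 0. CA3 and CA15 were not analysed here because no feature carries their symbol.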

How the data were processed

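Droplet libraries (10x Genomics, Chromium 3′ v3.1 kit) tag transcript ends with UMIs. Values in the deposited matrices are unscaled counts: each entry is the number of UMIs of a feature in a barcode. Cell Ranger produced them. The file headers name version 7.0.1, whereas the submitters' processing notes name version 7.1.0 and the genome build CanFam 3.1. The annotation release was not found in these sources. CA1 and CA2 have their own features, and how reads shared by related genes were counted is not stated.

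Barcodes with at least 200 genes and at most 10% UMIs from 13 mitochondrial genes were kept (24708 of 27953). Doublets were scored per library with Scrublet in scanpy 1.11.5, at 0.8% per 1000 cells. The 1036 called cells stayed in and were left out as an alternative. Sums needed at least 20 cells per library and gate. Fits used R 4.3.3 and edgeR 4.0.16 (TMM, low-count filter by gate, robust quasi-likelihood fit, library as a block, since both gates of a pair come from the same library), with DESeq2 1.42.0 as an alternative. A run on simulated counts held no library or dog effect, so it does not bear on the block, and its outcome is not reported here. Fits used 23, 32, 24, 203 and 259 progenitors and 60, 26, 43, 1498 and 1628 SULT1B1/TFPI-gate cells of whole marrows 1 to 3 and sorted libraries 1 and 2. The SE is the log2 difference divided by the square root of the F statistic. Intervals are exact 95% intervals and cover counting error only. PF4 and GP9 are not among the symbols, so the megakaryocyte division used ITGA2B alone.

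The members, gates and lists were chosen with earlier results of these data known. The genes named are CA1, CA2, list members past 0.05 (up to 3 with the largest change each way per list) and the 5 nearest to each member by correlation. Other marker genes are named where a gate is checked. Values of some list genes are not reported here. TRAK2 and RHAG enter the nearest 5 only among cells of 1 gate.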

Additional observations from a re-analysis of the deposited data

How the results depend on the processing

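The limits below bear on depth and on small gates: whole-marrow progenitors number 25 to 35 cells per library, and most low-MKI67/TOP2A erythroblasts are shallow. Restriction to cells of 1 gate and to cells with at least 5000 UMIs was chosen after seeing the data. Features that passed between progenitors and the SULT1B1/TFPI gate numbered 1894, and 3024 without the low-count filter, 3187 with cells of 1 gate only (which left the 2 sorted libraries), and 1280 to 2088 with a library left out. Between high-MKI67/TOP2A erythroblasts and progenitors 3355 passed, and 1840 to 3115 with a library left out. Between low- and high-MKI67/TOP2A erythroblasts 1424 passed (640 higher, 784 lower), and 742 with DESeq2 (439 higher, 303 lower), 418 at 5% mitochondrial UMIs, 167 at 0.5% AHSP, and 712 to 1251 with a library left out. Without the library block, which pairs gates of the same library, 1147, 2253 and 397 features passed in the 3 comparisons. Without the low-count filter the median over all features was -0.13, 0.12 and -0.24. In whole-marrow progenitors a 0.5% AHSP limit gave 1555 CPM of CA1, 4993 CPM of CA2 and a ratio of 0.314 (211, 3576 and 0.0591 as reported), since that limit admits cells called erythroblasts elsewhere. Means over cells in place of summed UMIs gave 168, 3355 and 0.0504 there, and 34.0 CPM of CA1 and a ratio of 0.0206 in sorted progenitors. CA2 of high-MKI67/TOP2A erythroblasts was 3904 CPM with cells of 1 gate only and 3274 CPM at 5% mitochondrial UMIs (4341 as reported). CA2 of low-MKI67/TOP2A erythroblasts was 4660, 3174, 4441 and 3303 CPM with cells of 1 gate only, at 5% mitochondrial UMIs, at 0.5% AHSP and as a mean over cells (5235 as reported). Their ratio was 0.683 at 5% mitochondrial UMIs and 0.615 as a mean over cells (0.399 as reported). The CA2 log2 difference between the erythroblast gates was -0.14 at 5% mitochondrial UMIs, where it was 0.18 as reported. The cause of these shifts was not tested, beyond what each alternative leaves out. Not run for lack of cells were the 5% mitochondrial limit in the first pair of comparisons and the 5000-UMI limit between the erythroblast gates.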

Other observations

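Of the other carbonic anhydrases, CA6, CA9 and CA13 were also measured outside the erythroid gates. CA6, the secreted form known from saliva, was highest in the EPX gate of whole marrow 2 at 90.9 CPM, from 32 UMIs in 25 cells. In the MPO gate it was 20.1 to 51.3 CPM over the 3 whole marrows and 0 and 0.351 CPM in the sorted libraries. CA9 was 48.9 to 62.2 CPM in the VPREB1 gate of whole marrow and 46.3 and 62.0 CPM in that of sorted cells, so the 2 kinds of library overlapped. It was 41.8 to 47.2 CPM in whole-marrow progenitors and 33.7 and 36.5 CPM in the sorted SULT1B1/TFPI gate. CA13 was 19.8 to 26.9 CPM in the MPO gate of whole marrow and 5.26 and 7.27 CPM in that of sorted cells.

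A division of erythroblasts that does not favour shallow cells was added after the data were seen. Among erythroblasts with at least 20000 UMIs, those with MKI67 and TOP2A under 0.02% of their UMIs numbered 28, 17 and 26 in whole marrows 1 to 3. Their CA2 was 5674, 7037 and 5557 CPM and their CA1 3377, 2402 and 3166 CPM. In the other 293, 380 and 199 deep erythroblasts CA2 was 3808, 4580 and 4478 CPM and CA1 4157, 2419 and 3285 CPM. CA2 was higher in the first set in all 3 libraries, and their AHSP was lower (6854, 4966 and 7352 CPM against 11430.3, 8314 and 9164 CPM).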
